A study of Mus musculus with 8 samples.

Results

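RNA sequencing of mouse retina was compared between a whole retina library at embryonic day 18 (E18) and a library of Cd73 negative cells (Cd73NC) sorted at postnatal day 2 (P2). The tables of both libraries were joined entry by entry on gene symbol and locus, small RNAs and failed estimates were set aside, and 12608 entries with an FPKM of at least 1 in either library were kept, of 23021 in the tables. FPKM is a level in which the fragments of a gene are divided by transcript length and by the size of the library. Of the 12608 entries, 679 were below 1 in P2 Cd73NC and 161 were below 1 in E18 whole retina. There was 1 library for each condition, so no difference could be set against a replicate error, no test was run, and "higher" or "lower" below means past 1.5-fold on FPKM + 1, the fold threshold of the study's methods.

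Both libraries came from slc:ICR mice, an outbred albino strain, without any mutant allele or agent. E18 retinas were extracted whole. P2 retinas were pooled, dissociated with trypsin, stained for Cd73, and sorted, and the negative cells were kept as frozen pellets before extraction. The comparison therefore joins a difference in age, the removal of Cd73 positive cells (Cd73PC), and dissociation with sorting, and these cannot be told apart. Fewer cells of a type and less RNA per cell cannot be told apart in such bulk samples either. Libraries of E15 whole retina and of P2 Cd73PC were set beside them as single values.

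In mouse retina, neurons and glia arise from a common pool of progenitors in a fixed order. Ganglion cells, the output neurons whose axons form the optic nerve, come first, together with horizontal cells, cones, and many amacrine cells, while most rods, bipolar cells, and Müller glia follow around and after birth. Cd73 is a surface ecto-nucleotidase encoded by Nt5e and marks rod precursors, so Cd73NC holds progenitors and the other retinal cells.

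Nt5e was low in both libraries, with an FPKM of 2.76 at E18 and 2.43 in P2 Cd73NC, against 97.3 in P2 Cd73PC. Nrl, the transcription factor that sets the rod fate, was 36.9 at E18, 28.3 in P2 Cd73NC, and 984 in P2 Cd73PC. By these genes P2 Cd73NC was close to E18 and far below P2 Cd73PC. Depth relative to E18, read from steps in the lowest values, was 1.27 for P2 Cd73NC. The absolute depth is unknown, so no counting interval was available. Markers of other tissues were mixed. Of 20 endothelial genes 5 reached an FPKM of 1 in either library, of 12 pericyte genes 5, of 21 microglia genes 11, of 24 lens genes 4, of 15 pigment epithelium genes 3, and of 30 stromal matrix genes 13. The summed FPKM at E18 and in P2 Cd73NC was 119 and 186 for the endothelial, 36.5 and 60.2 for the pericyte, 266 and 305 for the stromal, 252 and 133 for the erythroid, 26.2 and 15.9 for the microglia, 14.1 and 2.96 for the lens, and 7.83 and 4.25 for the pigment list. The sums of the first 3 lists were thus larger and those of the other lists smaller in P2 Cd73NC. Each larger sum came mostly from 1 gene, Kdr (87.9 and 139), Mcam (18.0 and 48.3), and Sparc (79.0 and 130). The median log2 ratio was 0.66 for the endothelial, -0.51 for the pericyte, and -0.27 for the stromal list. In the last 2 of these, 4 of 5 and 11 of 13 members had ratios below 0. The part of these tissues in the ratios was not tested.

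Of the endothelial genes, Kdr, a VEGF receptor, had 87.9 at E18 and 139 in P2 Cd73NC, Cldn5, a tight junction protein, had 15.9 and 29.1, and Egfl7, a secreted vascular factor, had 8.12 and 14.9. All 3 were higher, though the values of Kdr and Cldn5 in P2 Cd73NC lay just above the error bounds Cufflinks gave them. The receptor subunit Ramp2 (2.77 and 0.546) and the peptide Apln (1.51 and 0.461) were lower, and the junction proteins Pecam1 (0.217 and 0.223) and Cdh5 (0.385 and 0.166) were below 1. Of the pericyte genes, Mcam, an adhesion molecule, was higher (18.0 and 48.3), Acta2, smooth muscle actin, was lower (7.71 and 4.52), Pdgfrb, a growth factor receptor, had 1.70 and 1.13, Rgs5 had 0.206 and 0.585, and Kcnj8 had 0.0333 and was listed at 0. Of the stromal genes, Sparc, a matrix glycoprotein, was higher (79.0 and 130) and Col1a1 was below 1 (0.471 and 0.4998).

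The microglia genes Aif1 (0.492 and 0.233) and Cx3cr1 (0.507 and 0.929) were below 1, and Csf1r, the receptor these cells need to survive, had 1.44 and 0.697. The melanin enzymes Tyr (0.0899 and 0.0413) and Tyrp1 (0.605 and 0.270) were below 1, and Dct had 1.41 and 1.04. Of the lens crystallins, Cryaa had 1.496 and Cryab 1.15 at E18 and both were listed at 0 in P2 Cd73NC. An entry of the globin gene Hba-a1 led the erythroid list, with 100.04 and 51.6.

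Most genes lay close to the diagonal. The median log2 ratio of P2 Cd73NC over E18 was -0.03 and the middle 50% of entries lay between -0.33 and 0.24. Of the 12608 entries, 702 (5.57%) were higher in P2 Cd73NC and 1693 (13.4%) were lower, against which the lists below are read. Past 2-fold, 139 were higher (1.10%) and 625 were lower (4.96%). After quantile normalization of the pair, 916 were higher and 1127 lower, so that 44.8% of the calls were upward against 29.3% with the deposited values.

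**Figure D1:**
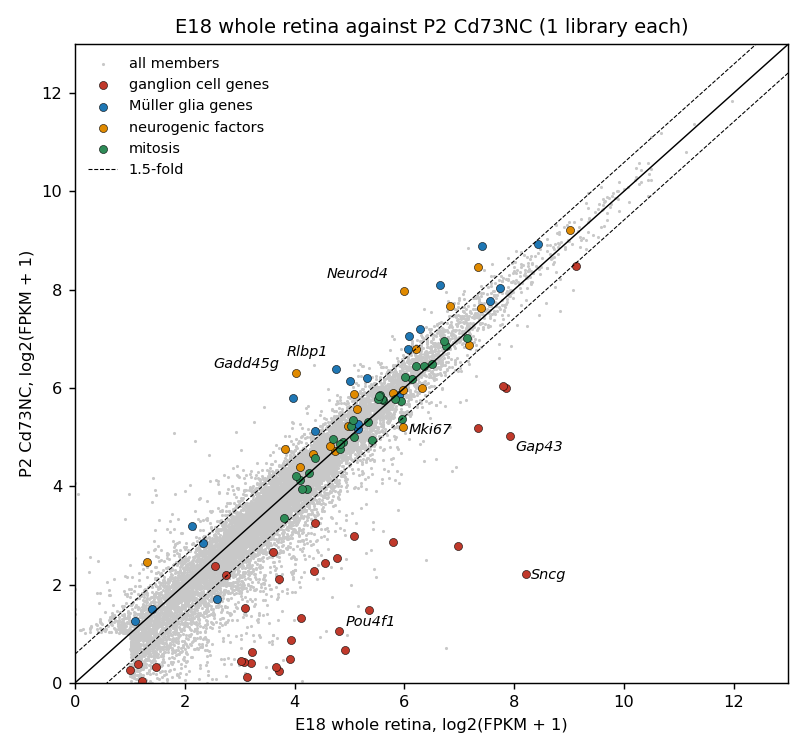
Expression of 12608 entries in E18 whole retina (horizontal axis) and P2 Cd73NC (vertical axis), both as log2(FPKM + 1), with the solid line at equality and dashed lines at 1.5-fold. Ganglion cell genes (red) lie below the diagonal, many Müller glia genes (blue) and some neurogenic factors (orange) above it, and mitosis genes (green) along it.

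Genes of retinal ganglion cells were nearly all lower in P2 Cd73NC. Of 35 ganglion cell genes, 33 were lower in P2 Cd73NC and 0 were higher, against 13.4% and 5.57% of all entries, and their median log2 ratio was -2.24. Their summed FPKM was 4018 at E15, 2259 at E18, 624 in P2 Cd73NC, and 194 in P2 Cd73PC, so that E18 was above both sorted fractions of P2. Adjusting for transcript GC content left 31 lower, with a median of -2.36.

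Sncg encodes gamma-synuclein and lies on chromosome 14 from 35183460 to 35187855, in the NCBI37/mm9 build used throughout for gene positions. Its FPKM was 295 at E18 and 3.65 in P2 Cd73NC, a log2 ratio of -5.99. Thy1, a surface glycoprotein of ganglion cell axons, had 29.2 and 0.580 (log2 ratio -4.26). Nefl and Nefm, the light and medium neurofilament subunits that fill large axons, had 125 and 5.90, and 54.4 and 6.26. All 4 genes were at or below 2.02 in P2 Cd73PC. Rbpms, an RNA-binding protein used to count ganglion cells, had 40.1 at E18 and 1.79 in P2 Cd73NC.

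Transcription factors of ganglion cells were among the lower genes. Pou4f1 and Pou4f2, the POU factors that drive ganglion cell differentiation, had 26.9 and 14.1 at E18 and 1.09 and 0.391 in P2 Cd73NC, and Pou4f3 had 11.7 and 0.249. Isl1, their partner factor, had 26.4 and 4.79 (log2 ratio -2.24), Isl2 had 16.3 and 1.49, and Ebf1 had 14.3 and 0.819. Eomes, a T-box factor of a ganglion cell subset, was less reduced, with 11.1 and 5.32 (log2 ratio -0.94). Dlx1 and Dlx2, homeobox genes that progenitors and young interneurons also express, were the 2 members not past 1.5-fold, with log2 ratios of -0.18 and -0.56. The nicotinic receptor subunits Chrna6 and Chrnb3 had 8.23 and 7.81 at E18 and 0.329 and 0.0842 in P2 Cd73NC.

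Genes of axon growth and the cytoskeleton that other young neurons also express ranged widely. Gap43, a growth cone protein, had 241 at E18 and 31.4 in P2 Cd73NC (log2 ratio -2.90). Stmn2, a tubulin-binding protein, and Uchl1, a neuronal deubiquitinase, had log2 ratios of -1.85 and -1.75. Tubb3, a neuron-specific tubulin, had 560.1 and 358 (log2 ratio -0.65), and -0.40, inside 1.5-fold, after the GC adjustment. Tubb3, Dlx2, and Dlx1 had the ratios closest to 0 of the 35 genes. Thy1 had a course of its own, with 2.28 at E15 before 29.2 at E18, while Sncg (485), Nefl (201), and Gap43 (512) were highest at E15.

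The lists of axon and synapse genes share Cntn2, L1cam, Tubb3, Slc17a6, and Sncg with the ganglion cell list. Of 33 axon guidance and adhesion genes, 11 were lower and 5 were higher. Cntn2, an axonal adhesion protein, had 7.44 at E18 and 0.331 in P2 Cd73NC, L1cam had 32.7 and 6.96, and Dcx, a microtubule protein of migrating neurons, had 25.6 and 7.49. Nfasc, an adhesion protein of the axon initial segment, had 8.59 and 2.68. On the other side, the guidance receptor Robo1 had 5.91 and 14.4 (log2 ratio 1.16), and the Eph receptors Epha3 and Epha4 and the ephrin Efnb1 had log2 ratios between 0.64 and 0.71. After the GC adjustment 2 of the 5 higher genes remained past 1.5-fold. Of 27 synaptic vesicle genes, 14 were lower and 1, Cplx3, was higher. Slc17a6, the vesicular glutamate transporter of ganglion cells, had 8.30 and 0.546, and Cplx1 had 23.3 and 4.44. Snap25 was lower (87.0 and 41.0) but reached 361 in P2 Cd73PC.

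Sonic hedgehog is released by ganglion cells and signals to progenitors. Shh, the ligand, had 2.42 at E18 and 0.0848 in P2 Cd73NC and was listed at 0 in P2 Cd73PC. Gli1, a transcriptional target and effector of the pathway, had 43.7 and 14.0 (log2 ratio -1.58). Ptch1, a receptor of the ligand, had 21.3 and 16.3, and the transducer Smo had 46.5 and 49.2. In all, 3 of 12 Hedgehog pathway genes were lower and 0 were higher. The list's median of -0.27 turned to 0.03 at an FPKM of at least 5.

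**Figure D2:**
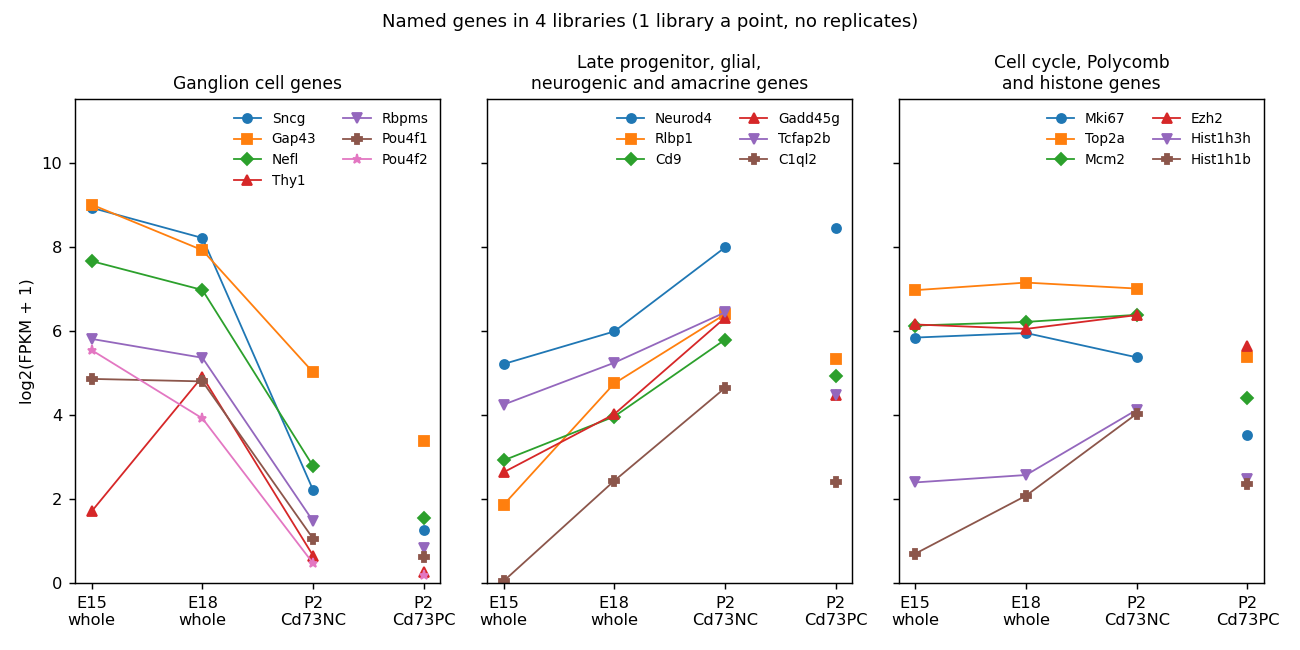
Levels of named genes as log2(FPKM + 1) in E15 and E18 whole retina, P2 Cd73NC, and P2 Cd73PC, 1 library a point; lines join the first 3 libraries only. Ganglion cell genes (left) drop between E18 and P2 Cd73NC, glial, neurogenic, and amacrine genes (middle) climb, and Top2a, Mcm2, and Ezh2 (right) stay inside 1.5-fold, Mki67 lies just inside it (log2 ratio -0.58), and 2 histone genes climb.

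Other early-born cell types were divided. Of 23 amacrine cell genes, 10 were higher and 5 were lower. Tcfap2a and Tcfap2b (now Tfap2a and Tfap2b), AP-2 factors required for amacrine and horizontal cells, had 17.8 and 36.9 at E18 and 44.0 and 85.9 in P2 Cd73NC, and Tcfap2c had 9.72 and 16.7. A further member of the family outside the list, Tcfap2e, had 0.968 and 13.3. C1ql2, a secreted C1q-like synaptic protein, had 4.42 and 24.0 (log2 ratio 2.21). The helix-loop-helix factors Nhlh2 and Neurod2 had 21.1 and 42.7, and 1.47 and 4.46. Slc32a1, the vesicular transporter of inhibitory transmitters, was higher (9.90 and 16.0), whereas Gad1 (5.16 and 5.47) and Gad2 (9.04 and 11.9), which make GABA, were inside 1.5-fold. Calb2, the calcium binding protein calretinin, was lower, with 116 and 18.8, and so were Slc18a2 (9.36 and 0.914) and the peptide gene Sst (3.005 and 0.263). Calb2 is also found in ganglion cells. All of these genes except Slc18a2 were lower in P2 Cd73PC than in P2 Cd73NC.

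Of 10 horizontal cell genes, 5 were lower and 2 were higher. Lhx1, a homeobox gene that positions horizontal cells, had 1.25 and 0.123, and Onecut1, which lies upstream of it, had 4.29 and 0.774. The chloride exchanger gene Slc4a3 had 8.64 and 1.95. Prox1, a homeobox gene that horizontal cells share with other interneurons and progenitors, had 12.2 and 18.1 (log2 ratio 0.53). The 2 higher members, Tcfap2a and Ndrg1, are not confined to horizontal cells, and the list's median of -0.40 was 0.39 over the 6 members that reached an FPKM of 5. After quantile normalization 2 were lower and 2 higher.

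Photoreceptor genes were divided as well. Of 24 rod genes, 8 were lower and 3 were higher, and after quantile normalization 5 and 3. Nr2e3, a rod nuclear receptor, had 28.9 at E18 and 7.63 in P2 Cd73NC, against 949.6 in P2 Cd73PC. Rpgrip1, a protein of the connecting cilium, had 7.51 and 1.69, Samd7 had 6.96 and 2.54, and Pdc, phosducin, had 55.6 and 30.4. In contrast, Guca1a, Gngt1, and Rcvrn, genes of phototransduction, were higher in P2 Cd73NC (log2 ratios 1.79, 1.32, and 1.23). Crx, a factor of both rods and cones, had 81.8 and 102. Of 14 cone genes, 6 were lower and 2 were higher. Rxrg and Thrb, nuclear receptors of developing cones, had 14.7 and 3.48, and 11.4 and 5.40, and Gnb3, a cone transducin subunit, had 63.0 and 35.1. Ccdc136 had 38.2 and 16.8, and the short-wave opsin gene Opn1sw had 39.8 and 26.2 (log2 ratio -0.58), just inside 1.5-fold and past it after the GC adjustment (-0.62). Pde6h, the inhibitory subunit of the cone phosphodiesterase, was listed at 0 at E18 and had 15.7 in P2 Cd73NC, while Opn1mw and Arr3 were below 1 in both. The 2 higher cone genes, Pde6h and Otx2, each had an FPKM outside its own Cufflinks bounds. Over the 11 cone genes inside their bounds, 0 were higher and 5 were lower. Of 14 bipolar cell genes, 5 were lower and 2 were higher. Gnao1, the G protein subunit of the ON pathway, had 60.5 and 24.5, Irx6 had 10.4 and 5.96, and Prdm8 had 9.39 and 16.4. After the GC adjustment Irx6 was inside 1.5-fold (-0.47) and 3 bipolar genes were lower and 3 higher, and the list's median of -0.35 turned to 0.13 at an FPKM of at least 5. Markers of mature bipolar cells were near 0, with Vsx1 and Grm6 below 0.1 in both libraries.

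**Figure D3:**
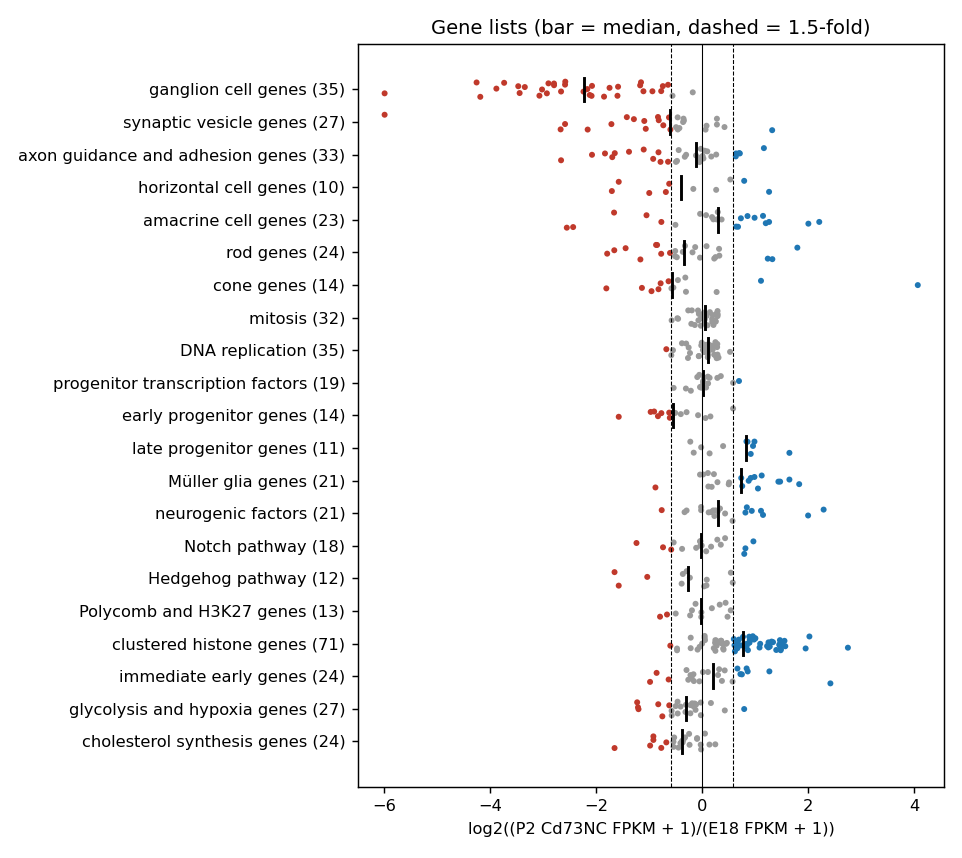
Log2 ratios of P2 Cd73NC over E18 on FPKM + 1 for 21 gene lists, with the number of members in brackets, 1 point per entry, black bars at the list median, and dashed lines at 1.5-fold; blue points are higher and red points lower in P2 Cd73NC. The ganglion cell list is centred at -2.24, the mitosis list at 0.05, and the late progenitor list at 0.83.

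Proliferation genes were inside 1.5-fold with few exceptions. Of 32 mitosis genes, 0 were higher and 0 were lower, with a median log2 ratio of 0.05 and a range from -0.58 to 0.29. Top2a, the topoisomerase that separates sister chromatids, had 141 at E18 and 128 in P2 Cd73NC, and Ccna2, an S and G2 phase cyclin, had 105 and 123. Mki67, the standard proliferation marker, was at the lower edge, with 60.9 and 40.4 (log2 ratio -0.58). It passed 1.5-fold without a pseudocount (-0.59), after upper-quartile scaling (-0.64), after quantile normalization (-0.69), and after the GC adjustment (-0.63), and was -0.38 after the length adjustment. Cenpe, a kinetochore motor, was the other mitosis gene past 1.5-fold after the GC adjustment (-0.65). Of 35 DNA replication genes, 1 was lower, Chaf1a, a histone chaperone subunit (28.9 and 17.7), which was inside 1.5-fold after the GC adjustment (-0.48). Mcm2 and Mcm5, subunits of the replicative helicase, had 73.3 and 82.5, and 65.7 and 66.3. In P2 Cd73PC the summed FPKM of the mitosis list was 538, against 1541 at E18 and 1593 in P2 Cd73NC.

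Progenitor transcription factors were held as well. Of 19, 1 was higher, Sox2 (62.0 and 101), and 0 were lower. Pax6 and Rax, which keep progenitors multipotent, had 176 and 190.0, and 233 and 224. The Notch effectors Hes1 and Hes5 had 58.6 and 56.9, and 158 and 108. Ezh2, the H3K27 methyltransferase of Polycomb repressive complex 2, had 65.2 at E18 and 82.1 in P2 Cd73NC (log2 ratio 0.33), and its partners Suz12 and Eed had log2 ratios of 0.54 and 0.48. Of the 13 Polycomb and H3K27 genes, 2 were lower, Ezh1 (6.24 and 3.56) and Phf1 (7.34 and 3.80), and 0 were higher. Phf1 was inside 1.5-fold after the GC adjustment (-0.50).

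Retinal progenitors change competence with age, and genes typical of early and of late progenitors were listed separately. Of 14 early progenitor genes, 7 were lower and 0 were higher (median log2 ratio -0.56), and over the 11 inside their own Cufflinks bounds 4 were lower. Fgf15, a fibroblast growth factor of embryonic progenitors, had 723 at E15, 299 at E18, and 152 in P2 Cd73NC. Sfrp2, a secreted Wnt modulator, had 51.4 and 29.7, Crabp2, a retinoic acid carrier, had 36.4 and 18.9, and Igf2bp1, an RNA-binding protein, had 9.17 and 4.70. Foxp1, a factor of early competence, had 4.97 and 2.90. Lin28b was below 1 in both (0.675 and 0.171).

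Of 11 late progenitor genes, 6 were higher and 0 were lower (median 0.83). Nfib and Nfix, nuclear factor I genes needed to leave the cell cycle and to make late-born cells, had 7.46 and 14.3, and 10.3 and 19.1, whereas Nfia (3.62 and 5.06) and Nfic (6.67 and 5.85) were inside 1.5-fold. Crym, a thyroid hormone binding protein, had 174 and 338, and Car2, a carbonic anhydrase, had 66.8 and 133. Rlbp1, the retinaldehyde binding protein of Müller glia (chromosome 7 from 86519756 to 86531913), had 2.65 at E15, 25.9 at E18, 83.1 in P2 Cd73NC, and 39.2 in P2 Cd73PC. Cufflinks gave some genes an FPKM outside its own bounds, and over the 6 members inside them 3 were higher (Nfib, Nfix, and Rlbp1), with a median of 0.61.

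Of 21 Müller glia genes, 11 were higher and 1 was lower, with a median of 0.73 that was 0.70 after the GC adjustment. Over the 12 members inside their own bounds, 6 were higher and 1 was lower. The list shares Rlbp1, Slc1a3, and Car2 with the late progenitor list. Cd9, a tetraspanin, had 14.6 and 54.4, Dbi, the acyl-CoA binding protein, had 169 and 470.0, and Gpm6b, a membrane proteolipid, had 99.7 and 271. Slc1a3, the glial glutamate transporter, had 77.3 and 146, and Mfge8 had 31.4 and 69.4. Glul, glutamine synthetase, was inside 1.5-fold (214 and 261), as was the intermediate filament gene Vim (187 and 218), and Aqp4 was below 1 in both (0.339 and 0.161). Clu was the member that was lower (4.99 and 2.25). Outside the lists, Entpd2, an ecto-ATPase, had 1.79 and 13.1, and Omg, a membrane glycoprotein of myelin and neurons, had 1.73 and 14.2.

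Of 21 neurogenic factors, 7 were higher and 1, Foxn4, was lower. Gadd45g, a stress and cell cycle exit gene induced by proneural factors (chromosome 13 from 51942044 to 51943843), had 15.2 at E18, 78.3 in P2 Cd73NC, and 21.4 in P2 Cd73PC. Neurod4, a proneural factor of bipolar and amacrine precursors, had 62.5 and 252, and Otx2, needed for photoreceptors and bipolar cells, had 162 and 349. Both were higher still in P2 Cd73PC, at 349 and 777. Ptf1a, a factor that selects amacrine and horizontal fates, had 13.1 and 26.0, and Foxn4, which acts before it, had 61.9 and 35.98. The ratio of Foxn4 was inside 1.5-fold after the GC adjustment (-0.52). Atoh7, needed for ganglion cells, had 564 at E15, 143 at E18, and 116 in P2 Cd73NC, and Neurog2 (79.3 and 62.7) was inside 1.5-fold too. Of the 7 higher genes, Neurod2 alone had both values inside their own bounds, so that 1 of 10 such members was higher.

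Clustered histone genes were the largest list of higher entries. Most encode canonical histones made in S phase, whose mRNAs end in a stem-loop in place of a poly(A) tail. The libraries were made from poly(A) selected RNA, so the values come from the part of these transcripts that was retained. The list was taken by symbol and also holds pseudogenes and genes that did not follow the mitosis list. Hist1h1c had 180 in P8 Cd73PC and Hist3h2ba 185 in P8 Cd73NC, where the summed FPKM of the mitosis list was 35.7 and 61.4. Of 71 entries (65 symbols), 44 were higher and 1 was lower, with a median log2 ratio of 0.77, while 0 of 32 mitosis genes were past 1.5-fold. The 5 classes, compared after their values were seen, were unequal. All 5 entries of linker histone H1 and all 12 of H3 were higher (medians 1.33 and 1.16), and so were 11 of 13 of H4 (1.31) and 12 of 19 of H2B (0.66). Of 22 H2A entries, 4 were higher (0.26). These were entries of Hist2h2aa1 (log2 ratio 0.84) and Hist1h2ao (0.88), which overlap entries of Hist2h2aa2 (-0.48) and Hist1h2ap (0.04). Overlapping entries share reads, so these 4 calls are uncertain.

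Hist1h1b had 3.24 at E18 and 15.4 in P2 Cd73NC, Hist1h3h had 4.96 and 16.5, and Hist1h4j had 2.54 and 13.3. The median FPKM of the H3 class was 4.06 at E15, 5.30 at E18, 16.3 in P2 Cd73NC, 5.25 in P2 Cd73PC, and 2.73 in P5 Cd73NC. By the H3 median P2 Cd73NC was thus the highest of these libraries. The H1 class was divided between the P2 fractions. Its median was 7.80 in P2 Cd73NC and 4.39 in P2 Cd73PC, but its summed FPKM was 69.3 and 211. Hist1h1c alone had 35.3 and 192. The histone genes are rich in GC, and after the GC adjustment 48 of 69 entries were higher, with a median of 1.02. Near-identical copies share reads, and in most of these short genes the FPKM lay outside its own Cufflinks bounds. Over the 28 entries inside them, 16 were higher and 1 lower, with a median of 0.65. In the H3 class only Hist1h3f, Hist2h3c1, and Hist2h3c2-ps were inside, with log2 ratios of 1.08, 0.61, and 0.79. In the H4 class only Hist1h4h (1.56) and the overlapping entries of Hist1h4m (-0.60) and Hist1h4n (2.75) were inside. The medians of these classes thus rest mostly on entries outside their bounds, as do the examples Hist1h1b, Hist1h3h, and Hist1h4j.

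Promoters are shown for 1 higher gene each of H1, H3, H4, and H2B, to set the letters of the classes side by side. Windows run from 250 bases before to 50 bases after the RefSeq start (GRCm38.p6), and capitals mark matches on either strand to the CCAAT box, to the TATA box as TATAAA, to the octamer spelled ATTTGCAT, and to the H4 element searched as GGTCC.
Hist1h1b (H1f5), chr13:21780576-21780875, minus strand: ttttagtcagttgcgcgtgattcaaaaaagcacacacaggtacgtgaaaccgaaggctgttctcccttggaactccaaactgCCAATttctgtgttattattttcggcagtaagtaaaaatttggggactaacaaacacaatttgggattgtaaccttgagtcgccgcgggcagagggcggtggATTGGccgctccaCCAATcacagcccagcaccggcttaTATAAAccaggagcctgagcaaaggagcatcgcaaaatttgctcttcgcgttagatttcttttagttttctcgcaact
Hist1h3h (H3c10), chr13:21717378-21717677, plus strand: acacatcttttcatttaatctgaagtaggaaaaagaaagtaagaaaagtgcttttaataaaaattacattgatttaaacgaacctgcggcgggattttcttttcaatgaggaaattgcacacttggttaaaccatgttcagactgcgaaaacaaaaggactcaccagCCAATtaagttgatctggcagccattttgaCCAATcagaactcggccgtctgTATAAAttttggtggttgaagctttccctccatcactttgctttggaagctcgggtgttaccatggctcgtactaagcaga
Hist1h4j (H4c11), chr13:21734784-21735083, plus strand: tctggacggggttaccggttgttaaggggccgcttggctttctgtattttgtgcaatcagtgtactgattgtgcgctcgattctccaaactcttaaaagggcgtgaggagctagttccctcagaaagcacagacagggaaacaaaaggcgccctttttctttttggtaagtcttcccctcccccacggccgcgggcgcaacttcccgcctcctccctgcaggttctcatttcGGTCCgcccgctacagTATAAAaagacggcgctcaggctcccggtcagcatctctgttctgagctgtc
Hist1h2bg (H2bc8), chr13:23571150-23571449, plus strand: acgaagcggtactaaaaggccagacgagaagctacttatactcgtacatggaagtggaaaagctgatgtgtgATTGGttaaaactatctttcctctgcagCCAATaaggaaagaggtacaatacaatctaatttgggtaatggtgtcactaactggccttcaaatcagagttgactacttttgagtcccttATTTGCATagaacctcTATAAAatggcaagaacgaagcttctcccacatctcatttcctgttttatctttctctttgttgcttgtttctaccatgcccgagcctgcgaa

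Of the 65 histone symbols, 58 matched a RefSeq gene with a promoter. CCAAT was present in 5 of 5 H1, 10 of 10 H3, 15 of 15 H2B, and 17 of 17 H2A promoters and in 3 of 11 of H4, against 37.4% of all 32851 promoters of this length. The octamer was present in 7 of 15 H2B and 7 of 17 H2A promoters and in 0 of the H1, H3, and H4 promoters, against 1.74% of all. TATAAA was found in 4 of 5 H1, 4 of 10 H3, 8 of 11 H4, 8 of 15 H2B, and 11 of 17 H2A promoters (13.6% of all), and GGTCC in 10 of 11 H4 promoters (45.5% of all). In the windows shown, TATAAA begins at -28, -31, and -43 from the RefSeq start in Hist1h1b, Hist1h3h, and Hist1h2bg, but at -2 in Hist1h4j. Whether the Hist1h4j match acts as a TATA box was not tested. All these matches describe letters and not bound sites.

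H2A and H2B genes often lie head to head, and 9 such pairs had promoter windows that shared 220 to 279 bases on opposite strands. In 8 of the 9 the log2 ratio of the H2B gene was above that of its H2A neighbour, by a median of 0.36 over the 9 pairs. The pairs restate the class difference in the same values, and copies that share reads are not independent. Adjacent genes outside the 9 went both ways. Hist2h2ac and Hist2h2be had log2 ratios of 0.40 and -0.22, Hist3h2a and Hist3h2bb-ps 0.39 and -0.09, and Hist1h2ac and Hist1h2bc 0.25 and 0.59. Hist1h2bg, shown above, had 2.87 at E18 and 7.25 in P2 Cd73NC, while Hist1h2ae, which shares 279 bases of that window, had 9.33 and 8.97. The exception was Hist1h2ao and Hist1h2bq (log2 ratios 0.88 and 0.36), where the value of Hist1h2ao is uncertain because its entry overlaps Hist1h2ap.

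**Figure D4:**
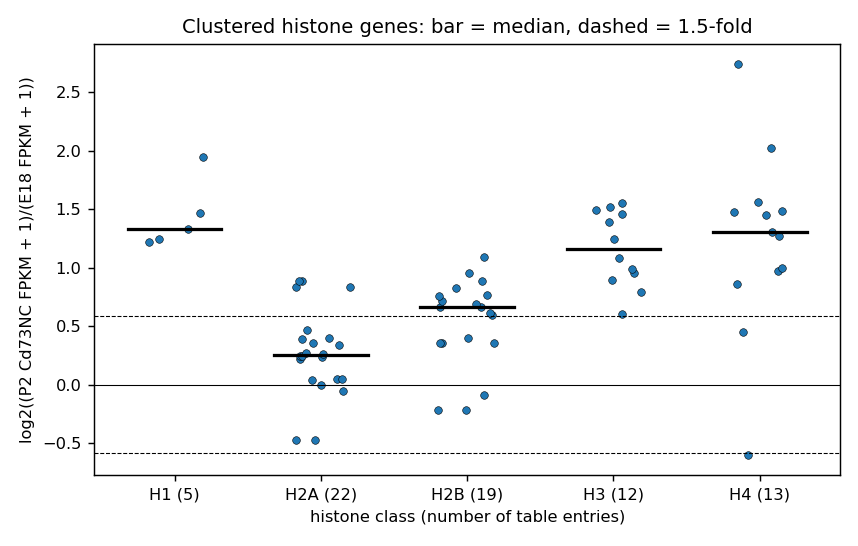
Log2 ratios of P2 Cd73NC over E18 for clustered histone entries by class, with the number of entries in brackets, 1 point per entry, black bars at the class median, and dashed lines at 1.5-fold. The medians of H1, H3, and H4 are 1.33, 1.16, and 1.31, and that of H2A is 0.26.

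Genes of acute stimulation, metabolism, and stress were listed as well. Of 24 immediate early genes, 7 were higher and 3 were lower. Egr1, a zinc finger factor induced within minutes of stimulation, had 0.877 at E18 and 9.01 in P2 Cd73NC, Fos had 1.75 and 5.61, and Jun had 39.0 and 70.3. Myc, a growth regulator, was lower (5.13 and 2.096). Egr1 and Fos were higher again in P2 Cd73PC (17.0 and 10.5), which was sorted in the same way, whereas Jun was below its P2 Cd73NC value there (57.2). Atf3 was below 1 in both (0.299 and 0.177), and Dusp1 did not differ past 1.5-fold (16.9 and 17.0). Sorting and age cannot be told apart here. Of 27 glycolysis and hypoxia genes, 6 were lower and 1 was higher, with Vegfa, the vascular growth factor, at 54.3 and 22.9 and Eno2, the neuronal enolase, at 34.7 and 14.5. Of 24 cholesterol synthesis entries, 6 were lower and 0 were higher, with Mvd, a mevalonate pathway enzyme, at 24.3 and 11.8 and Tm7sf2, a sterol reductase, at 10.8 and 2.74. Hmgcs1, with a pair of entries of equal values, had 94.7 and 49.5. Of 17 genes of the integrated stress and p53 responses, 6 were lower and 0 were higher, with Asns, asparagine synthetase, at 18.2 and 4.97 and Bbc3, a p53 target, at 7.28 and 2.95.

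A cluster of imprinted RNAs on chromosome 12 was lower as a group. Meg3, a maternally expressed long non-coding RNA (chromosome 12 from 110779206 to 110809939), had 35.5 at E15, 83.6 at E18, 4.69 in P2 Cd73NC, and 8.54 in P2 Cd73PC. The downstream transcripts Rian and Mirg had 58.6 and 15.8, and 5.86 and 0.953. Of 15 imprinted growth genes, 6 were lower and 0 were higher, and after the GC adjustment, which had no value for Meg3, Rian, and Mirg, 3 of 12 were lower. Igf2 and H19, imprinted neighbours on chromosome 7, were lower in P2 Cd73NC (27.2 and 7.92, 128 and 51.7) but reached 165 and 349 in P2 Cd73PC.

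Genes of the sex chromosomes differed in opposite directions. Xist, the RNA of the inactive X chromosome, had 34.7 at E18, 1.96 in P2 Cd73NC, and 3.46 in P2 Cd73PC. The Y-linked Ddx3y, Eif2s3y, and Uty had 5.06, 10.7, and 2.58 at E18 and 15.6, 23.8, and 5.50 in P2 Cd73NC. A different mix of sexes among the animals and the comparison itself cannot be told apart. The X chromosome as a whole had a median log2 ratio of 0.03 over 431 entries.

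Ratios varied with the base composition of the transcripts. Among 9528 entries with an FPKM of at least 5 in either library and a GENCODE transcript, the log2 ratio and the GC content had a Spearman correlation of -0.41 (across genes, which are not independent replicates). In the fifth of genes with the lowest GC content, up to 44.6%, the median ratio was 0.26, with 11.9% higher and 2.78% lower. In the fifth with the highest, from 56.2%, it was -0.22, with 4.14% higher and 21.0% lower. For E18 over E15 the correlation with GC was 0.07. Transcript length had a correlation of -0.20 with the ratio of P2 Cd73NC over E18 and of -0.23 with that of E18 over E15. The part of GC content in the counts was not tested beyond subtracting the median ratio of each of 20 GC bins, which gave 571 higher and 1367 lower of 12146 entries. The medians of the ganglion cell, Müller glia, and histone lists were then -2.36, 0.70, and 1.02.

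**Figure D5:**
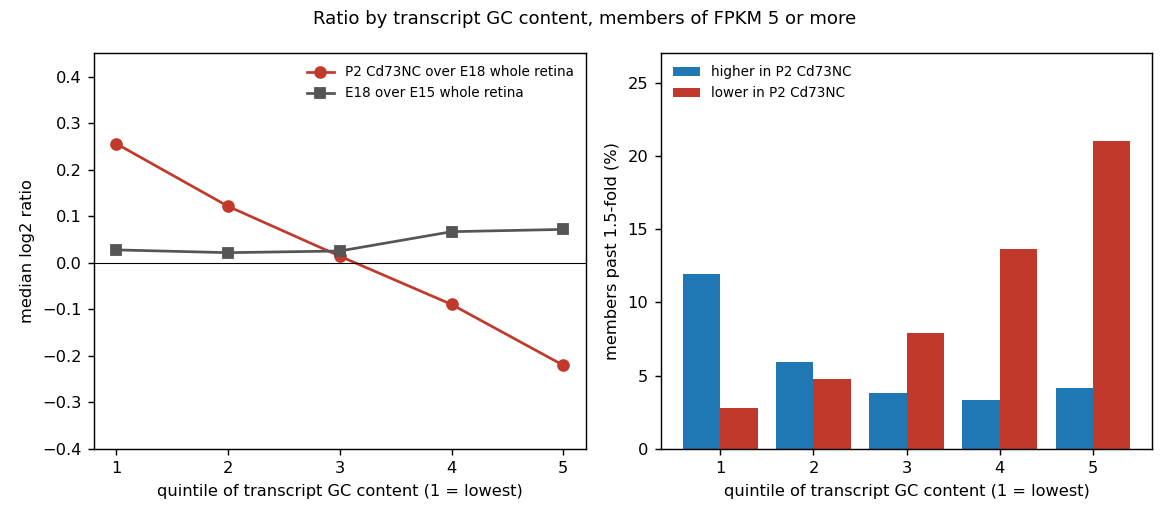
Left, median log2 ratio by quintile of transcript GC content for P2 Cd73NC over E18 (red) and for E18 over E15 whole retina (grey); right, share of entries past 1.5-fold in each quintile, higher (blue) and lower (red) in P2 Cd73NC, for 9528 entries with an FPKM of at least 5 in either. The median falls from 0.26 to -0.22 across the quintiles and the share of lower entries climbs from 2.78% to 21.0%.

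Among entries with an FPKM of at least 10 in the higher library, the 15 lowest ratios included 7 ganglion cell list genes (Sncg, Thy1, Nefl, Rbpms, Pou4f1, Nrn1, and Pou4f2), Xist, and Meg3. They also included Pcp4 (29.9 and 0.953), a calmodulin regulator, Syt13 (21.0 and 0.914), Rgs4 (22.8 and 1.09), a regulator of G protein signalling, and the non-coding RNA Snhg11 (10.6 and 0.0655). The 15 highest included Gadd45g, C1ql2, Tcfap2e, Omg, Entpd2, Pde6h, Hist1h4n, and Cxcl14, a chemokine (8.61 and 38.5). Several extremes were entries that share reads with a near-identical or overlapping copy and are uncertain. Atp6v0c-ps2 had 107 and 0.640 while Atp6v0c, which covers the same bases, had 134 and 223. Pisd-ps1 had 16.6 and 0.0294 while Pisd-ps3 at the same place had 0.0422 and 13.3. The Hist1h4n entry among the highest (1.68 and 17.0) lies inside Hist1h4m, the 1 lower histone entry, which had 3.92 and 2.24. Another Hist1h4n entry had 6.39 and 19.6. The ribosomal protein genes Rps27 (2.50 and 32.8) and Rpl26 (3.56 and 29.4) also have many processed copies, and 78 of the 81 ribosomal protein entries were inside 1.5-fold.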

How the data were processed

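Total RNA from whole retinas at E18 and from sorted P2 Cd73NC was poly(A) selected and sequenced as 36-base single reads. Per the submitters' processing notes and the paper's methods, the authors made reads with CASAVA 1.8.2 and bcl2fastq 1.8.4, aligned them to NCBI37/mm9 with TopHat2 2.0.8b allowing multiple hits, and deposited FPKM with lower and upper bounds per gene from Cufflinks 2.1.1. The bounds describe 1 library and not the variation between animals. Start coordinates in the tables count from 0, and 1 was added. Counting is not stated to use strand, so antisense partners cannot be separated.

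Tables were joined on symbol and locus. Small RNA entries (794, by symbol) and 8 entries with a failed estimate in either library were left out. Ratios are log2((P2 Cd73NC FPKM + 1)/(E18 FPKM + 1)), a scale on which changes at low FPKM come out too small. The members, the gene lists, and the rules were chosen with earlier results of these data known. Genes named are the 15 largest and 15 smallest ratios at an FPKM of at least 10 in the higher library, up to 4 per list and direction past 1.5-fold at an FPKM of at least 5, Mki67, Ezh2, Nt5e, and the first 3 genes of each cell type list. Some genes that the rule names are not reported here. Other genes were named after their values were seen, as list members or relatives. Lists hold genes by textbook role and were matched through RefSeq synonyms. GC content and length came from the longest GENCODE vM1 coding transcript per symbol (96.3% of entries), and promoters from RefSeq (GRCm38.p6). Alternatives were other pseudocounts, filters, scalings, thresholds, and bounds, and, chosen after seeing the data, adjustment for GC content or length and leaving out entries outside their own bounds. Scripts were tested on simulated data. Calculations used scipy 1.17.1, pandas 2.3.3, and numpy 2.4.6 under Python 3.11.15, with matplotlib 3.10.9 for the plots.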

Additional observations from a re-analysis of the deposited data

How the results depend on the processing

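Counts moved most with the filter and the threshold. At an FPKM of at least 5 in either library, there were 1571 entries past the threshold, 989 of them lower, because fewer entries were tested. Quantile normalization gave 1127 lower entries. Past 2-fold there were 764 entries, 139 higher and 625 lower. The other 39 of 45 alternative counts were within 1.5 times the reported ones, including the 644 higher and 1629 lower entries with non-overlapping bounds. The median of the ganglion cell list was -2.94 with a pseudocount of 0.1 and -2.94 with none, where the lens list was lower (-3.82 and -3.25), by the construction of the ratio for weakly expressed genes. The endothelial list, with 5 members, reversed to -0.057 without a filter and to -0.78 without entries outside their own bounds. Of 492 alternative list medians, 483 moved by less than the 1.5-fold threshold on the log2 scale. In all 18 changed sign, 2 of them (endothelial) from a median past 1.5-fold. The median of all entries shifted by at most 0.07 (log2) under any alternative. With 1 library for each condition, no library could be left out in turn and counting error is unknown. No paired analysis was possible because each condition has 1 library.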

Other observations

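Of 18 Notch pathway genes, 3 were higher and 3 were lower in P2 Cd73NC. The ligand Dll3 had 32.7 at E18 and 58.2 in P2 Cd73NC, the modulator Mfng had 31.6 and 55.4, and the effector Hey2 had 9.09 and 18.7. The non-canonical ligand Dner had 29.3 and 17.1, and the receptor Notch1 had 57.7 and 70.5. Of 13 stromal matrix genes, 1 was higher, Sparc, and 4 were lower, with the basement membrane collagen gene Col4a2 at 10.7 and 5.64. After the GC adjustment Col4a2 was inside 1.5-fold (-0.55) and 2 stromal genes were higher and 3 lower. Col1a2 and Col3a1 were below 1 in both.

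Genes of translation and respiration were near equality. Of 78 oxidative phosphorylation genes, 1 was higher and 1 was lower (median log2 ratio 0.12), and of 81 ribosomal protein entries 3 were higher and 0 were lower (median 0.10). Of 17 heat shock genes, 1 was higher, Hspa5, the chaperone of the endoplasmic reticulum (131 and 201), and 2 were lower. After the GC adjustment, and also after quantile normalization, 0 of the 17 were past 1.5-fold, with Hspa5 at 0.56 after the former. Of 9 interferon genes, 0 were higher and 2 were lower, with Stat2 at 7.34 and 4.51, which was inside 1.5-fold after the GC adjustment (-0.51). After quantile normalization 3 of the 9 were higher and 0 lower. Of 9 ciliary margin genes, 1 was higher, Cdh2, an adhesion protein (90.3 and 136), and 3 were lower, with Bmp7 at 6.31 and 2.90. Otx1, Msx1, and Msx2 were below 1 in both. Astrocyte markers were low, with Gfap at 2.27 and 0.187 and Pax2 at 1.05 and 0.0925, and S100b at 0.908 and 0.0358.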
